A study of Mus musculus with 8 samples.

Results

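Fibronectin and the matricellular proteins were followed here as 10 genes, Fn1, Vcan, Ccn1, Ccn2, Spp1, Sparc, Thbs1, Thbs2, Tnc and Postn, among the 20141 genes named on a mouse ovary microarray. Non-control probes were assigned to these genes through the transcript accession that the scanner files give for each probe, which found 14 of 55681 probes. Fn1, Postn, Thbs1, Thbs2, Spp1, Ccn1 and Ccn2 had 1 probe each, Tnc and Sparc had 2 each, and Vcan had 3. Ccn1 is also known as Cyr61 and Ccn2 as Ctgf.

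The arrays compared ovary from wildtype mice, labelled healthy, on 3 arrays with ovarian neoplasia, labelled tumorigenic, on 5 arrays. All mice were 33 weeks old and cycling, and the stage of the cycle is not given in the labels. Total RNA came from flash-frozen tissue. The neoplasia mice carried cre at 1 Pgr allele and 1 LsL allele of the progesterone receptor, written as Pgrcre/+mPgrLsL/+ with the samples and as Pgrcre/+PgrBLsL/+ in the description of the series, and the wildtype mice carried neither. An LsL allele is silent until Cre removes a stop cassette, so it is switched on only in cells in which the Pgr promoter has driven Cre and in their descendants, in the ovary or elsewhere. A Cre-only or LsL-only control was not analysed here. Whether each array held a different animal is not said in the labels. The p-values below therefore cover only the spread between these samples, which may be technical. Names such as neoplasia 5 or wildtype 1, and the neoplasias as a group, stand for arrays throughout. The series title frames the comparison as the effect of the B form of the receptor on ovarian neoplasia and on the transcriptome.

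Fibronectin is secreted as a soluble dimer and is pulled by integrins into fibrils that other matrix proteins bind. Versican is a large proteoglycan that binds hyaluronan and is laid down in the cumulus matrix and in loose stroma. Matricellular proteins are secreted into the matrix but serve mainly as signals: they bind integrins, proteoglycans, growth factors and proteases, and they are known from remodelling tissue such as wounds, growing vessels, the ovulating follicle and tumour stroma. The CCN proteins, osteopontin (Spp1), SPARC, the thrombospondins, tenascin-C (Tnc) and periostin (Postn) belong to this class.

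The 8 arrays lay on 1 slide and were scanned once. The second slide row held the 3 wildtype arrays and neoplasia 5, and the first held neoplasia 1 to 4. Each array had 55681 distinct probes and no saturated spot, and the 75th percentile of signal was 462 to 515 on the wildtype arrays and 309 to 429 on the neoplasia arrays. Levels below are log2 signal minus the log2 of that percentile, so 0 is the 75th percentile of the array, and the level of 1 probe is not set against that of another. Where a difference between probes within an array is given, only its change between the groups is read. Pgr itself was high on the neoplasia arrays at 1 of its 2 probes, A_51_P213476, which read 3.12 to 4.88 there and -7.22 to -4.19 on the wildtype arrays. The other Pgr probe, A_55_P2095663, read -4.96 to -2.05 on the wildtype arrays and was not well above background on any neoplasia array. Ovarian identity markers differed on the neoplasia arrays (limma, adjusted p under 0.05). Falls numbered 9 of 9 tested oocyte genes, 9 of 10 luteal genes, 7 of 10 granulosa genes and 6 of 7 theca and interstitial genes. Of all features tested, 13.5% fell and 16.8% rose, and none of these 4 lists had a gene that rose. The genes that fell were all well above background on the 3 wildtype arrays. Lhcgr, Fshr, Amh and Cyp19a1, from the luteal and granulosa lists, were not well above background on any neoplasia array. The granulosa genes Foxl2 (0.43), Fst (1.06) and Nr5a2 (-3.02) did not pass (limma, adjusted p = 0.118, 0.115 and 0.171). Foxl2 was above every wildtype array on each neoplasia array. The luteal genes Cyp11a1 and Star fell but stayed well above background on all 5 neoplasia arrays. In whole tissue, fewer cells of a type and less RNA per cell cannot be told apart, and this holds for every gene below.

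Promoter windows of the array genes were taken from RefSeq (GRCm38.p6), which held 10 windows for 7 of the 10 genes. Fn1, Thbs1 and Ccn2 had no window in the table used. The 250 bases before the annotated start are shown for Ccn1, Sparc and Spp1, because these are the genes with a window whose RNA rose in neoplasia. Each runs 5′ to 3′ on the gene's own strand, ending at the base before the start. Capitals mark matches, on either strand, to the motifs searched: the TEAD core GGAATG, the AP-1 site TGANTCA, the CArG box, TGTTCT as the core of progesterone receptor elements, the TATA box TATAAA and the GC box GGGCGG.
Ccn1, chr3:145649986-145650235, minus strand: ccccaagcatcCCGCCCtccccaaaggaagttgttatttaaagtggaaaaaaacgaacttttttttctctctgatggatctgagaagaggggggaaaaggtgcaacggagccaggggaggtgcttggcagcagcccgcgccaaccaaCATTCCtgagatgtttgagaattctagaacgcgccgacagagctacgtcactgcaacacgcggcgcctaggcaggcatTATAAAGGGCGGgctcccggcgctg
Sparc, chr11:55420081-55420330, minus strand: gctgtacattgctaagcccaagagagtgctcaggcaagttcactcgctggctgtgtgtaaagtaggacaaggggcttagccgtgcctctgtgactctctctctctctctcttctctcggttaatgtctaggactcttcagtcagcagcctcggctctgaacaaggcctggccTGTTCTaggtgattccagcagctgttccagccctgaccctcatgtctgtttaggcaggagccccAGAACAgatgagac
Spp1, chr5:104434861-104435110, plus strand: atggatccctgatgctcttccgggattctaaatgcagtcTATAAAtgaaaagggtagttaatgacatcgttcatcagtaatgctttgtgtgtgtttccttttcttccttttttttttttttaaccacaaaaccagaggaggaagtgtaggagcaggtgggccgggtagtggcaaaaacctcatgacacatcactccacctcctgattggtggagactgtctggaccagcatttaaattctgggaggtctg
The Ccn1 window held the TEAD core, in reverse as CATTCC and beginning 103 bases before the start. It also held a TATA box at 25 bases, directly followed by a GC box at 19 bases, and a further GC box at 239 bases. The Sparc window held the progesterone receptor core at 78 bases as TGTTCT and at 14 bases in reverse as AGAACA, and no TATA or GC box. The Spp1 window held TATAAA at 211 bases, and the window of a second annotated Spp1 start held none of the motifs. Among all 32851 windows in the table, 12.6% held the TEAD core, 16.1% the progesterone receptor core, 12.4% the TATA box, 32.7% the GC box, 6.75% the AP-1 site and 1.47% the CArG box. Among the 10 windows of the matricellular genes the TEAD core was found in that of Ccn1 and the progesterone receptor core in that of Sparc, and none held the AP-1 site or the CArG box. These are letter matches in a window and carry no measure of binding.

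Across the 10 genes, Fn1, Ccn1, Spp1 and Sparc rose in neoplasia and the other 6 did not pass the test in either direction. The rises were large for Spp1 (27.1-fold), Fn1 (16.7-fold) and Ccn1 (9.94-fold) and small for Sparc (1.71-fold). All 10 genes passed the filter on dim probes, so none was left untested. The background was high in this comparison: of the 25226 features tested, 16.8% were higher, 13.5% lower and 30.3% changed in either direction (limma, adjusted p under 0.05). The 4 genes that rose were also those whose arrays did not overlap between the groups, with every neoplasia array above every wildtype array, against 23% of all features. None of the 10 had every neoplasia array below the wildtype arrays, against 16.1% of all features. The median difference of the 10 genes was 0.73 on the log2 scale, beside 0.13 over all features tested. Counted by probe, 6 of the 14 rose and none fell, where 15.6% of all 34294 probes tested rose. Where 13.5% of all probes fell, none of the 14 did. These counts depend on single arrays. Without wildtype 1, 2 of the 10 genes rose (Fn1 and Ccn1), beside 5.15% of all features, without wildtype 2, 3 rose (beside 6.01%), and without wildtype 3, 4 rose (beside 7.58%). Without neoplasia 5, 4 genes rose (beside 22.5%) and 2 fell, Thbs1 and Tnc (beside 17.1%).

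**Figure D1:**
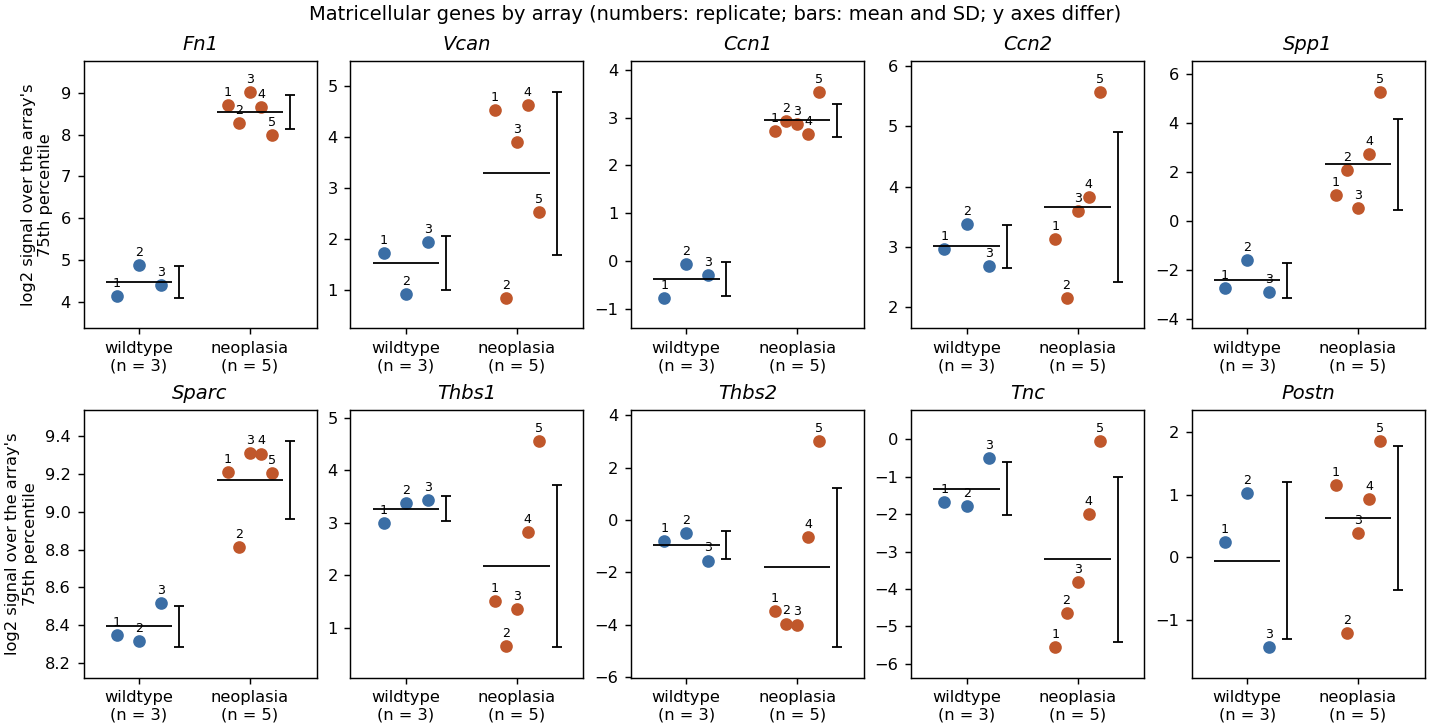
Level of each of the 10 genes on every array, as log2 signal over the 75th percentile of the array, for 3 wildtype arrays (blue) and 5 neoplasia arrays (orange); numbers are replicates, lines are means, bars are SD, and the y axes differ between panels. Fn1, Ccn1, Spp1 and Sparc have no overlap between groups (the Sparc difference turns to -0.12 after quantile normalization), while Ccn2, Thbs1, Thbs2, Tnc and Postn each have neoplasia 5 on top and overlap with wildtype.

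Fn1 encodes fibronectin itself. Its probe, A_55_P2130178, read 4.14, 4.89 and 4.40 on wildtype 1 to 3 and 8.72, 8.28, 9.03, 8.67 and 7.99 on neoplasia 1 to 5. Even the lowest neoplasia array, neoplasia 5, was far above the highest wildtype array, and the neoplasias lay close together. The mean went from 4.47 ± 0.38 (SD, n = 3) to 8.54 ± 0.40 (SD, n = 5), a log2 difference of 4.06 ± 0.29 (SE; 95% interval 3.41 to 4.72; limma, adjusted p = 6.92e-05). The rise held under each of 19 alternatives, with log2 differences from 3.33 to 4.27 and a largest adjusted p of 0.00579. Since the first slide row held neoplasia arrays only, a fit with slide row as a block reduces to neoplasia 5 alone against the 3 wildtype arrays, with the spread of that lone array assumed to be like that of the others. For Fn1 that difference was 3.52.

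Vcan encodes versican, and its 3 probes followed one pattern with different clarity. Probe A_55_P1960202, which stands for the gene, read 1.71, 0.92 and 1.93 on wildtype 1 to 3 and 4.51, 0.84, 3.90, 4.62 and 2.53 on neoplasia 1 to 5. Neoplasia 1, 3 and 4 were far above the wildtype arrays and neoplasia 5 slightly above them, but neoplasia 2 lay below all 3. The difference of 1.76 ± 0.84 (SE; 95% interval -0.17 to 3.68) did not pass (limma, adjusted p = 0.141). Without neoplasia 2 it was 2.37 and passed (limma, adjusted p = 0.0194), where 16% of all features rose.

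The other Vcan probes, which the files assign to a second Vcan transcript, also had neoplasia 1, 3 and 4 highest, then neoplasia 5, and neoplasia 2 lowest. A_55_P1960208 read 0.61, -0.30 and 0.56 on wildtype 1 to 3 and 3.62, 0.09, 2.99, 3.60 and 1.28 on neoplasia 1 to 5, with neoplasia 2 inside the wildtype range. Its difference was 2.03 ± 0.82 (SE; limma over all probes, adjusted p = 0.0944). A_52_P1044655, dim throughout and well above background on 2 of 3 wildtype arrays, read -4.32, -5.22 and -3.91 on wildtype 1 to 3 and -0.95, -3.97, -0.88, -0.82 and -2.76 on neoplasia 1 to 5. It rose by 2.61 ± 0.77 (SE; limma over all probes, adjusted p = 0.0367), although neoplasia 2 overlapped with the wildtype arrays. The within-array gap between A_55_P1960202 and A_52_P1044655 was 6.01 ± 0.16 (SD, n = 3) in wildtype, and in neoplasia it was 5.15 ± 0.33 (SD, n = 5), a difference of -0.85 that did not pass after adjustment (two-sided exact permutation p = 0.0179, adjusted p = 0.0893 over 5 probe pairs). With normexp background correction this difference turned to 0.28.

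The CCN genes encode cysteine-rich secreted proteins that bind integrins and heparan sulfate, and Ccn1 and Ccn2 are both known as early responses to growth factors, stretch and YAP. Here they parted. Ccn1 (A_51_P252859) read -0.77, -0.06 and -0.29 on wildtype 1 to 3 and 2.72, 2.93, 2.87, 2.65 and 3.54 on neoplasia 1 to 5, so that all 5 neoplasias stood clear of the wildtype arrays. The mean went from -0.37 ± 0.36 (SD, n = 3) to 2.94 ± 0.35 (SD, n = 5). The difference was 3.31 ± 0.27 (SE; 95% interval 2.70 to 3.92; limma, adjusted p = 0.000135). It kept its call under all 19 alternatives, from 2.71 to 3.91, the highest being that of neoplasia 5 alone against the wildtype arrays of its slide row.

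Ccn2 (A_51_P157042) read 2.96, 3.38 and 2.68 on wildtype 1 to 3 and 3.13, 2.16, 3.59, 3.83 and 5.57 on neoplasia 1 to 5. Neoplasia 1 lay inside the wildtype range, neoplasia 2 below it, and neoplasia 5 far above it. The difference of 0.65 ± 0.66 (SE; 95% interval -0.87 to 2.16) did not pass (limma, adjusted p = 0.472), and its interval reaches from a fall to a rise. In neoplasia 5 alone, with slide row as a block, the Ccn2 difference was 2.57, beside 3.91 for Ccn1, so the 2 genes lay closer together there. Taken within each array, Ccn1 minus Ccn2 was -3.73, -3.44 and -2.97 on wildtype 1 to 3 and -0.41, 0.78, -0.72, -1.18 and -2.04 on neoplasia 1 to 5, with no overlap between the groups. The Ccn1 probe therefore moved by 2.66 more than the Ccn2 probe (two-sided exact permutation over 56 splits, p = 0.0179, the smallest possible; adjusted p = 0.0357 over 2 gene pairs). With normexp background correction this was 2.41 (exact permutation, adjusted p = 0.0714). Without any 1 array it was 2.29 to 2.99, in designs whose adjusted p can go no lower than 0.0571.

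Spp1 encodes osteopontin, an acidic phosphoprotein that binds integrins and CD44 and is made by macrophages, bone cells, many epithelia and the decidua. Probe A_55_P2085142 read -2.75, -1.62 and -2.92 on wildtype 1 to 3 and 1.05, 2.07, 0.52, 2.73 and 5.28 on neoplasia 1 to 5. Every neoplasia was above every wildtype array, with neoplasia 5 clearly the highest. The difference was 4.76 ± 0.99 (SE; 95% interval 2.50 to 7.02; limma, adjusted p = 0.0109). The call was lost without wildtype 1 (4.60; limma, adjusted p = 0.0502), and in neoplasia 5 alone, the 1 neoplasia in the slide row of the wildtype arrays, the difference was 7.71. Macrophage markers were also higher in neoplasia: 8 of 9 tested rose, where 16.8% of all features rose (limma, adjusted p under 0.05). Their summed level, in multiples of the array's 75th percentile, was 32.6 to 38.7 in wildtype. On neoplasia 1 to 5 the sum was 123, 181, 91.9, 90.8 and 97.3. In neoplasia 5, where Spp1 was highest, that sum was 97.3, and in neoplasia 2, where the sum was highest, Spp1 was 2.07. The part of macrophages in the Spp1 rise was not tested.

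Sparc encodes a collagen-binding glycoprotein of stroma, endothelium and basement membranes. Probe A_55_P2046812 read 8.35, 8.32 and 8.52 on wildtype 1 to 3 and 9.21, 8.81, 9.31, 9.31 and 9.20 on neoplasia 1 to 5. All neoplasias were higher, neoplasia 2 the least. The difference was 0.77 ± 0.19 (SE; 95% interval 0.35 to 1.20; limma, adjusted p = 0.0190), the smallest of the 4 rises. It turned to -0.12 after quantile normalization (limma, adjusted p = 0.614), was 0.17 with spike-in scaling (adjusted p = 0.880) and 0.31 with the deposited log2 values (adjusted p = 0.173). Those settings move the median of all features from 0.13 to 0.02, -0.47 and -0.34. The call was also lost without wildtype 1 (limma, adjusted p = 0.0873), without wildtype 2 (adjusted p = 0.0817) and with slide row as a block, which sets neoplasia 5 alone against wildtype (0.81; adjusted p = 0.152). The second probe, A_55_P2046807, read 1.64, 1.90 and 2.10 on wildtype 1 to 3 and 3.11, 2.63, 2.91, 2.85 and 4.01 on neoplasia 1 to 5, again without overlap, a difference of 1.22 ± 0.32 (SE; limma over all probes, adjusted p = 0.0250). The probes did not move by detectably different amounts (-0.45, exact permutation adjusted p = 0.232 over 5 probe pairs).

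**Figure D2:**
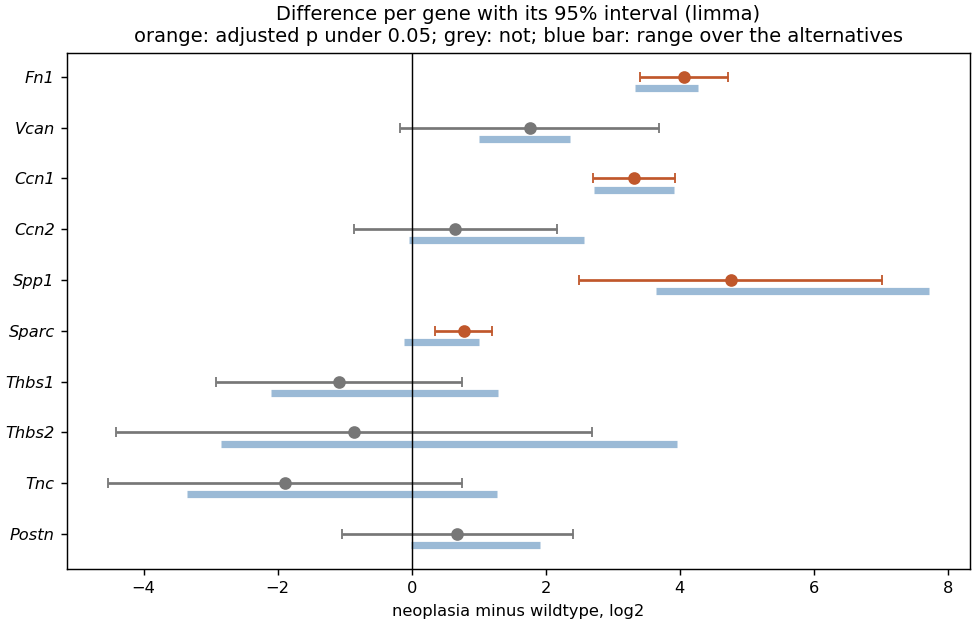
Neoplasia minus wildtype difference of each gene on the log2 scale, with its 95% interval from limma (8 arrays; orange, adjusted p under 0.05; grey, not), and below it a blue bar for the range over the alternatives. Fn1, Ccn1 and Spp1 stay above 0 throughout, the Sparc bar reaches -0.12 with quantile normalization, and the bars of Thbs1, Thbs2 and Tnc run from below -2, with the replicate number as a block, to above 1, with slide row as a block, which leaves neoplasia 5 alone as the contrast.

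Thrombospondins 1 and 2 are trimeric calcium-binding glycoproteins that restrain angiogenesis through CD36 and CD47. Thrombospondin 1 (Thbs1) also activates latent TGF-beta and is stored in platelets. Thbs1 (A_55_P2017636) read 3.0, 3.37 and 3.43 on wildtype 1 to 3 and 1.5, 0.65, 1.36, 2.83 and 4.56 on neoplasia 1 to 5. Neoplasia 1 to 4 were below all wildtype arrays and neoplasia 5 above all of them. Over all 5 neoplasias the difference was -1.09 ± 0.80 (SE; 95% interval -2.92 to 0.74; limma, adjusted p = 0.319). Without neoplasia 5 it was -1.68 and passed (limma, adjusted p = 0.0295), and blocking on slide row, which leaves neoplasia 5 alone, turned it to 1.29.

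Thbs2 (A_51_P461877) spread further. It read -0.80, -0.49 and -1.55 on wildtype 1 to 3 and -3.46, -3.95, -3.99, -0.66 and 3.02 on neoplasia 1 to 5. Neoplasia 1 to 3 were below the wildtype range, neoplasia 4 inside it and neoplasia 5 far above it. The difference was -0.86 ± 1.55 (SE; 95% interval -4.41 to 2.69; limma, adjusted p = 0.691), and without neoplasia 5 it was -2.07 (limma, adjusted p = 0.0825). In neoplasia 5 alone, with slide row as a block, it turned to 3.96. Within an array, Thbs1 minus Thbs2 averaged 4.21 ± 0.66 (SD, n = 3) on the wildtype arrays, and on the neoplasia arrays 3.99 ± 1.53 (SD, n = 5), a difference of -0.23 that did not pass (two-sided exact permutation p = 0.804) and turned to 0.38 without neoplasia 5 and to 0.16 without wildtype 3.

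Tenascin-C is a hexameric glycoprotein of embryonic, wounded and tumour stroma that weakens adhesion to fibronectin. Its probe A_52_P355169 read -1.68, -1.78 and -0.49 on wildtype 1 to 3 and -5.54, -4.64, -3.82, -2.0 and -0.04 on neoplasia 1 to 5. Neoplasia 1 to 4 were below all wildtype arrays, neoplasia 1 at a signal not well above background, and neoplasia 5 was above all of them. The difference of -1.89 ± 1.15 (SE; 95% interval -4.53 to 0.74) did not pass (limma, adjusted p = 0.233). It passed without neoplasia 5 (-2.68; limma, adjusted p = 0.0357) and with spike-in scaling (-2.49; limma, adjusted p = 0.0361), and blocking on slide row, with neoplasia 5 alone, turned it to 1.27. The second Tnc probe, A_55_P2421597, was well above background on 2 of 5 neoplasia arrays. It read -1.69, -1.77 and -0.44 on wildtype 1 to 3 and -4.96, -5.37, -5.14, -2.75 and -0.85 on neoplasia 1 to 5, a difference of -2.51 ± 1.03 (SE; limma over all probes, adjusted p = 0.0976). On this probe neoplasia 5 lay inside the wildtype range.

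Periostin is a secreted adhesion protein that links collagen, fibronectin and tenascin-C. Postn (A_55_P1954086) read 0.24, 1.03 and -1.43 on wildtype 1 to 3 and 1.16, -1.20, 0.40, 0.94 and 1.86 on neoplasia 1 to 5. The wildtype SD, 1.26, was above the neoplasia SD, 1.15, and the groups overlapped broadly. The difference was 0.68 ± 0.75 (SE; 95% interval -1.04 to 2.40; limma, adjusted p = 0.507). Without wildtype 3, the lowest array, it was -0.0079.

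The neoplasia arrays differed among themselves in a way that divided the 10 genes. Fn1, Ccn1 and Sparc varied little, with SDs of 0.40, 0.35 and 0.21 over the 5 neoplasias, below the median of 0.47 over all features. Thbs2, Tnc, Spp1, Vcan, Thbs1, Ccn2 and Postn had SDs of 3.03, 2.20, 1.86, 1.60, 1.54, 1.25 and 1.15. For Thbs2, 99.6% of all features had a smaller SD, and for Postn, the least variable of these 7, 88.1%. Neoplasia 5 was the highest of the neoplasias for 7 of the 10 genes (Ccn1, Ccn2, Spp1, Thbs1, Thbs2, Tnc and Postn), against 21.6% of all features. Neoplasia 2 was the lowest for 5 of the 10 (Vcan, Ccn2, Sparc, Thbs1 and Postn), against 19.5% of all features. The genes share these arrays and are not independent of each other, so these counts are descriptions.

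Summed stromal markers had a similar order over the neoplasias. The summed level of 10 fibroblast genes, among them Col1a1, Dcn and Pdgfra, was 248 to 334 on the wildtype arrays. On neoplasia 1 to 5 it was 25.8, 27.7, 26.3, 123 and 548, so neoplasia 5 was above and the other 4 below the wildtype range. Of these 10 genes 1 fell (Dpt) and none rose. The sum of 10 smooth muscle and pericyte genes was 117 to 325 in wildtype and 22.4, 15.4, 29.1, 68.3 and 214 on neoplasia 1 to 5. Of these 10 genes 2 were lower (Cnn1 and Myocd) and none higher. Cnn1 lost its call without wildtype 1 or wildtype 2. In both lists the count of falls is near the share of all features. Rgs5 was above every wildtype array on each neoplasia array but did not pass (1.08; limma, adjusted p = 0.0797). Both sums were low on the arrays where Thbs1, Thbs2 and Tnc were low, and highest among the neoplasias on neoplasia 5, where Thbs1, Thbs2, Tnc, Ccn2 and Postn were highest. Fn1, on the other hand, was 4.24, 3.81 and 4.55 above the wildtype mean on neoplasia 1 to 3, where the fibroblast sum was lowest. The part of stromal cells in any of these differences was not tested.

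Marker lists of other cell types that make matricellular proteins gave the following values, where 16.8% of all features were higher and 13.5% lower. Platelet genes, whose granules hold thrombospondin 1, summed to 3.19 to 4.21 in wildtype and to 13.0, 5.11, 6.49, 20.1 and 39.6 on neoplasia 1 to 5, with 3 of 7 tested genes higher and none lower. Ppbp and Gp9, which are specific to platelets, were not well above background on any wildtype array and were at least 24.4-fold and 15.6-fold higher in neoplasia, computed against the lowest signal called above background. Erythrocyte genes summed to 9.97 to 28.9 in wildtype and 402 to 1924 in neoplasia, highest on neoplasia 5, with 6 of 6 tested genes higher. Of 10 endothelial genes 2 were higher (Cdh5 and Vwf) and none lower, with sums of 57.2 to 69.7 and 77.5 to 175. That count of rises is near the share of all features. Of 10 epithelial and mesothelial genes 2 were higher (Krt8 and Krt18) and 2 lower (Epcam and Cdh1), with sums of 30.8 to 99.2 and 191 to 768. Both counts are near the shares of all features, and the median difference of the list was -0.95 although its sum was higher. Of 5 tested decidual genes 2 were higher (Prl8a2 and Hand2) and 1 lower (Alpl), with sums of 6.71 to 6.95 and 22.6 to 284. The median difference of the tested decidual genes was -1.11. The part of these cell types in the matricellular differences was not tested.

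**Figure D3:**
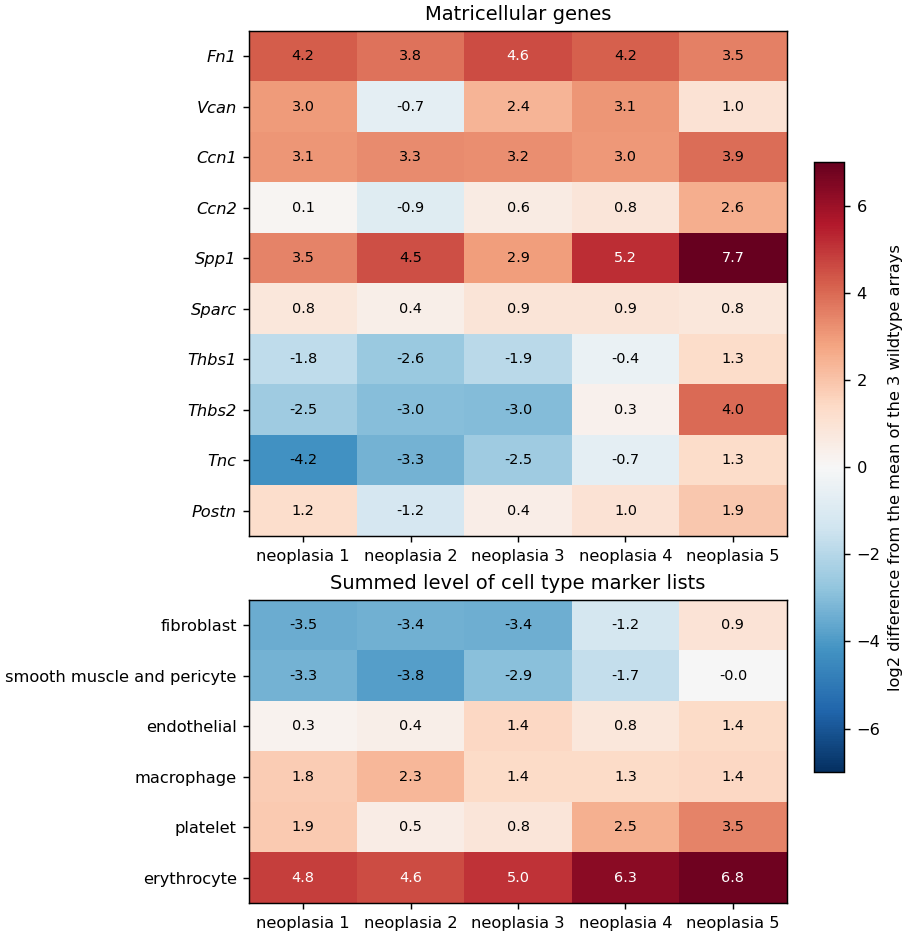
Log2 difference of each neoplasia array (columns, 1 to 5) from the mean of the 3 wildtype arrays, for the 10 genes (upper block) and for the summed level of 6 cell type marker lists (lower block); red is higher and blue lower. Thbs1, Thbs2 and Tnc are blue on neoplasia 1 to 3 and red on neoplasia 5, as is the fibroblast row, while Fn1, Ccn1 and Spp1 are red on all 5; Sparc is weakly red here and its mean difference turns with quantile normalization.

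Genes with the most similar profile were found for the 4 genes that rose, by the root mean square difference of centred log2 levels over the 8 arrays, among 12644 named genes above background on every array. Nearest to Fn1 were Cdkn1a (0.21), a cyclin-dependent kinase inhibitor, and B2m (0.27), the light chain of class I histocompatibility molecules, where the median gene differed by 1.92. Nearest to Ccn1 were Agfg2 (0.36) and Cdkn2a (0.40), another inhibitor of cyclin-dependent kinases, with a median of 1.59. Nearest to Spp1 was the globin Hbb-b2 (0.53), with a median of 2.65. Nearest to Sparc were Tmem184b (0.080) and Itprid2 (0.082), with a median of 0.53. The genes share the arrays, and the measure includes the difference between the groups.

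Among wider relatives of the matricellular genes, more fell than rose. Of 30 relatives, 23 were tested, 9 fell, 1 rose and 13 did not pass, with a median difference of -1.81 beside 0.13 over all features, of which 13.5% fell and 16.8% rose. Bcan, the proteoglycan brevican, fell from 1.34 ± 0.63 (SD, n = 3) to -5.41 ± 1.47 (SD, n = 5), a difference of -6.74 ± 0.79 (SE; limma, adjusted p = 0.000952), and was well above background on 2 of 5 neoplasia arrays. Smoc1 and Smoc2, modular calcium-binding proteins related to SPARC, fell by 6.71 ± 1.32 and 5.54 ± 1.62 (SE; limma, adjusted p = 0.00871 and 0.0347), with Smoc1 well above background on 3 of 5 neoplasia arrays. Smoc2 lost its call without any 1 of the 3 wildtype arrays, neoplasia 2 or neoplasia 3. Thbs4 and Comp, both pentameric thrombospondins, fell by 5.39 ± 1.01 and 4.44 ± 0.43 (SE; limma, adjusted p = 0.00722 and 0.000360). Thbs3, also in this list, did not pass (-1.81; limma, adjusted p = 0.0937). Comp was well above background on 2 of 5 neoplasia arrays and Thbs4 on 4 of 5, so the values of Bcan, Smoc1, Comp and Thbs4 are in part differences from background. The other falls were Tnxb (-3.54), Spock2 (-2.57), Tgfbi (-0.92) and Hapln1. Hapln1 was well above background on 1 of 5 neoplasia arrays, its groups overlapped, and it lost the call when 1 array was left out for 7 of the 8 arrays. Tgfbi lost the call for 5 of the 8, Spock2 without wildtype 1 or wildtype 2, and Tnxb without wildtype 1. Ccn3 was the relative that rose. It was not well above background on any wildtype array and at least 2.58-fold higher in neoplasia (limma, adjusted p = 0.0423), and it kept the call without neoplasia 2 but lost it without any other single array. The count of falls was 4 without wildtype 1, 5 without wildtype 2 and 15 without neoplasia 5 (beside 17.1% of all features). Ibsp, Dmp1, Ncan, Tnr, Ccn6, Spock1 and Spock3 were not well above background on any neoplasia array.

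Of 18 receptors of these proteins, 16 were tested, 5 rose, none fell and 11 did not pass, with a median of 0.64, where 16.8% of all features rose and 13.5% fell. Sdc4, a heparan sulfate proteoglycan that cooperates with integrins on fibronectin, rose from -1.31 ± 0.15 (SD, n = 3) to 2.86 ± 1.01 (SD, n = 5), a difference of 4.18 ± 0.53 (SE; limma, adjusted p = 0.00141). Cd36 and Cd47, both thrombospondin receptors, rose by 3.77 ± 0.54 and 2.19 ± 0.25 (SE; limma, adjusted p = 0.00244 and 0.000870). Itga4 and Itga5, integrin chains of fibronectin receptors, rose by 1.70 ± 0.48 and 1.39 ± 0.40 (SE; limma, adjusted p = 0.0319 and 0.0333). Without wildtype 1, wildtype 2 or wildtype 3 the count of rises was 3 (beside 5.15%, 6.01% and 7.58% of all features). Itga4 was also lost without neoplasia 2 and Itga5 without neoplasia 4. Without neoplasia 5, 2 of the 16 receptors were lower, a count near the share of all features (17.1%).

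Of 15 tested partners of the fibronectin fibril, 2 rose, 2 fell and 11 did not pass, with a median of -1.32. These counts are near the shares of all features, of which 16.8% rose and 13.5% fell. Igfbp3, a carrier of insulin-like growth factors that binds fibronectin, rose by 4.35 ± 0.41 (SE; limma, adjusted p = 0.000318), and Tgm2, a transglutaminase that crosslinks fibronectin, rose by 2.94 ± 0.46 (SE; limma, adjusted p = 0.00350). Fbn2, a fibrillin of microfibrils, fell by 5.30 ± 0.63 (SE; limma, adjusted p = 0.000973). Tnxb, tenascin-X, fell by 3.54 ± 0.74 (SE; limma, adjusted p = 0.0114) and lost the call without wildtype 1. The count of falls was 1 without wildtype 1 and 7 without neoplasia 5 (the latter beside 17.1% of all features).

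TGF-beta signalling is known to induce several matricellular genes. Of 19 genes of the pathway tested, 3 rose, 3 fell and 13 did not pass, with a median of -0.32. These counts are near the shares of all features, of which 16.8% rose and 13.5% fell. The ligand Tgfb1 rose by 1.95 ± 0.26 and the receptor Tgfbr2 by 0.85 ± 0.22 (SE; limma, adjusted p = 0.00184 and 0.0233), the latter losing its call without wildtype 1, wildtype 2 or wildtype 3. Ltbp1, which holds the latent ligand in the matrix, fell by 4.82 ± 1.08 (SE; limma, adjusted p = 0.0143) and lost its call without wildtype 1 or wildtype 3. The repressors Ski and Tgif1 fell by 1.06 ± 0.33 and 0.99 ± 0.32 (SE; limma, adjusted p = 0.0409 and 0.0460), and lost the call when 1 array was left out for 6 and 7 of the 8 arrays. The count of falls was 0 without wildtype 1 or wildtype 3, and 1 without wildtype 2, neoplasia 2 or neoplasia 4.

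Targets of YAP and TEAD other than Ccn1 and Ccn2 gave 7 rises, no fall and 12 genes that did not pass among 19 tested of 20, with a median of 0.35, where 16.8% of all features rose. Ankrd1, an ankyrin repeat protein, had the largest difference, from -6.31 ± 1.45 (SD, n = 3; well above background on 1 of 3 arrays) to 1.83 ± 1.37 (SD, n = 5), or 8.14 ± 0.88 (SE; limma, adjusted p = 0.000611). Igfbp3, which this list shares with the fibril partners, Nt5e (2.79 ± 0.40 SE; limma, adjusted p = 0.00231) and Axl (1.1 ± 0.19 SE; limma, adjusted p = 0.00519) rose in all settings that leave out 1 array. Crim1 (1.33), Myof (1.18) and Amotl2 (0.86) lost their calls without any 1 of the wildtype arrays, which gives 4 rises each time. The shares of all features that rose were then 5.15%, 6.01% and 7.58%. Without neoplasia 5 there were 3 falls among the 19, a count near the share of all features (17.1%).

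Immediate early genes, which are switched on within minutes by growth factors or stress, gave 9 rises, no fall and 7 genes that did not pass among 16 tested of 17, with a median of 1.37, where 16.8% of all features rose. Fos rose by 3.54 ± 0.45, Junb by 2.36 ± 0.30 and Zfp36 by 2.31 ± 0.25 (SE; limma, adjusted p = 0.00144, 0.00132 and 0.000652), the last of these well above background on 1 of 3 wildtype arrays. Klf6, Ier2, Fosb, Atf3, Btg2 and Dusp1 rose by 1.32 to 1.88. The groups of Dusp1 overlapped. When 1 array was left out, Dusp1, Atf3 and Btg2 lost the call for 6, 5 and 4 of the 8 arrays, and Fosb without wildtype 1 or wildtype 2. The count was 5 without wildtype 1 or wildtype 2 (beside 5.15% and 6.01% of all features). With spike-in scaling 3 of the 16 rose.

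**Figure D4:**
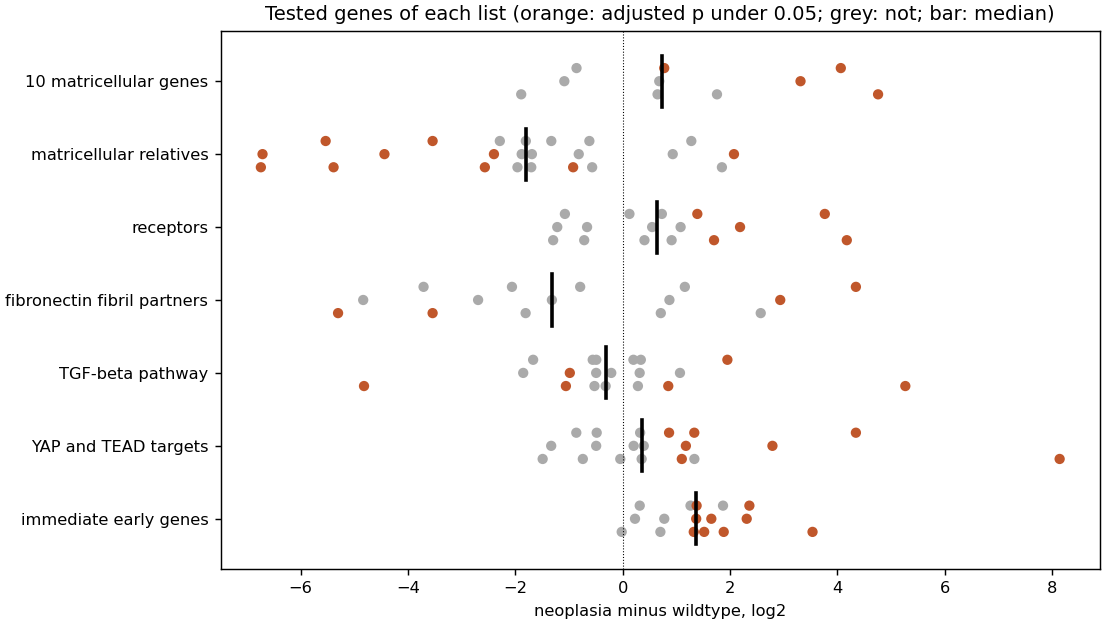
Neoplasia minus wildtype difference on the log2 scale for each tested gene of the 10 matricellular genes and of 6 companion lists (orange, limma adjusted p under 0.05; grey, not; black bar, median of the list). The matricellular relatives lie mostly left of 0 with a median of -1.81, and the immediate early genes mostly right of it with a median of 1.37; of the orange points, that of Sparc at 0.77 changes side with quantile normalization.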

How the data were processed

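Total RNA of wildtype ovary (3 samples) and of ovarian neoplasia (5 samples) was measured on 8 Agilent mouse arrays of 1 colour (Cy3). Per the file headers, the deposited intensity values are linear and come from Agilent Feature Extraction 11.0.1.1 on an mm9 grid, which subtracted background and detrended each array but did not normalize between arrays. The authors' deposited table holds log2 values, which equalled log2 of the processed intensity averaged over the spots of an accession (37932 of 37932 within 0.001), so it was neither centred nor turned. The submitters' processing notes name Partek, without a role.

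The values used were log2 processed intensity minus the 75th percentile of the array, after removing control spots and outlier-flagged spots (0.229% to 0.322% of spots). A probe had to be well above background on 3 or more of the 8 arrays, and a gene was read from its probe of highest mean. Accessions were named through the RefSeq table of GRCm38.p6, which gave a symbol to 47.7% of probes. Probe positions within transcripts were not used. Groups were fitted with limma 3.58.1 in R 4.3.3 (lmFit, eBayes, no covariate), and two-sided p-values were adjusted by Benjamini-Hochberg over 25226 features at 0.05. A second fit took all 34294 probes that passed. Within-array differences of gene pairs and probe pairs went into a two-sided exact permutation test over 56 splits (smallest p 0.0179), using Python 3.11.15 and scipy 1.17.1. In simulated data for this comparison, with 25226 genes, the fit recovered 7.9% of genes changed by 1 on the log2 scale, 66.4% of those changed by 2 and 93.9% of those changed by 4. Far fewer genes were changed there than the 30.3% called in the data, which makes the adjusted threshold stricter. Both groups were also given the same spread, whereas the median SD was 0.47 in neoplasia and 0.20 in wildtype. These percentages are therefore not the power of the real comparison. Precision is limited by the number of arrays.

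The 10 genes, the companion and marker lists and the tests were chosen with earlier results of these data known. The rule for named genes takes each of the 10 with all probes, up to 3 changed genes of a companion list by size of change, and the 2 nearest profiles of each of the 10 that changed. Of the genes this rule gives, 2 are not reported here. Other genes named were chosen after their values were seen, to account for the calls in a list. Alternatives were normexp background correction (offset 50, on median foreground and background intensity, as the files used have no mean foreground), quantile normalization, scaling on E1A spike-in controls (the 6 of 10 that every array detected), the deposited log2 values, no filter on dim probes, a filter on all 8 arrays, averaging a gene's probes, trended and robust eBayes, the replicate number or the slide row as a block, an adjusted p of 0.01, and leaving out each array.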

Additional observations from a re-analysis of the deposited data

Results flagged for a closer look

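The Sparc probe A_55_P2046812 read 8.81 on neoplasia 2, the lowest of the 5 neoplasia arrays, whereas the next lowest array read 9.20. This gap took up a share of 0.786 of the range of the group, above the Dixon limit of 0.71 for 5 samples. It was the 1 such array among 28 ends examined (highest and lowest array of 14 probes in the neoplasia group), and chance alone marks about 5% of groups.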

How the results depend on the processing

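Fn1 and Ccn1 kept direction and call under all 19 alternatives. Spp1 kept its direction under all 19 and lost its call at an adjusted p of 0.01 and without wildtype 1, while Sparc lost its call or direction under 8 of the 19. Tnc gave no value under the filter on all 8 arrays, since none of its probes passed it. Directions turned for Sparc with quantile normalization (-0.12), for Thbs1 (1.29), Thbs2 (3.96) and Tnc (1.27) with slide row as a block, for Postn without wildtype 3 (-0.0079; 1.22 at most, without wildtype 2) and for Ccn2 with the replicate block (-0.048). No other changed gene of the companion and marker lists turned with normexp, quantile normalization, spike-in scaling or the deposited values. The calls over all features numbered 7655, against 4945 with spike-in scaling, 1543 with slide row as a block and 2564 at 0.01. With 3 wildtype arrays, each of them weighs most: the count was 2836, 3212 and 4041 without wildtype 1, 2 and 3, and 9987 without neoplasia 5. Of the 10 genes, 2 rose at 0.01 and 1 (Tnc) fell with spike-in scaling. Leaving out 1 array gave 2 to 5 rises and 0 to 2 falls. The causes of these shifts were not tested.

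The replicate numbers do not pair the arrays: same-numbered arrays deviated from their group means with correlations of -0.05, -0.03 and 0.00, and no label ties the numbers to litters or days. The replicate block rests on numbers 1 to 3, which both groups have, and so leaves out what neoplasia 4 and 5 add to the contrast. With it, 4691 of 25226 features passed in either direction. Separate shares of rises and falls are not given for this setting, so its counts are descriptions. Of the 10 genes 3 fell, Tnc by 3.35, Thbs1 by 2.10 and Thbs2 by 2.85 (limma, adjusted p = 0.00632, 0.0212 and 0.00929). Falls numbered 14 among the relatives, 9 among the fibril partners and 1 among the receptors. Rises numbered 0 among the relatives, 3 among the receptors and 4 among the YAP and TEAD targets.

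Counts in the companion lists moved as follows. Among the relatives, rises numbered 2 with normexp and 2 after quantile normalization, and 0 with the deposited values, spike-in scaling, the filter on all 8 arrays and at 0.01 (0 to 1 when 1 array was left out). Falls among the relatives numbered 14 with spike-in scaling, 4 with the filter on all 8 arrays, 2 with slide row as a block and 4 at 0.01 (4 to 15). Among the receptors, rises numbered 2 with spike-in scaling and 3 with the deposited values, slide row as a block and at 0.01 (3 to 6), and falls numbered 1 after quantile normalization, 2 after spike-in scaling and 1 without a filter (0 to 2). Among the fibril partners, 1 rose with slide row as a block (2 to 3), and falls numbered 4 with normexp, 8 with spike-in scaling and 1 at 0.01, with slide row as a block and with the filter on all 8 arrays (1 to 7). In the TGF-beta pathway, 1 rose with spike-in scaling (2 to 4), and falls numbered 7 with the deposited values, 1 without a filter and 0 with slide row as a block and at 0.01 (0 to 4). Among the YAP and TEAD targets, rises numbered 3 with spike-in scaling and 4 with the deposited values, slide row as a block and at 0.01 (4 to 8), and falls numbered 1 after quantile normalization and 2 after spike-in scaling (0 to 3). Among the immediate early genes, rises numbered 3 with spike-in scaling and 5 at 0.01 (5 to 9), with no fall in any setting.

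The Ccn1 minus Ccn2 change was 2.41 with normexp and missed the threshold there, and it was 2.29 to 2.99 when 1 array was left out. The Thbs1 minus Thbs2 change was -0.88 with normexp, -0.77 after quantile normalization and -0.57 to 0.38 when 1 array was left out, and passed in none of these settings. Of the probe pairs, A_55_P1960202 against A_52_P1044655 and A_55_P1960208 against A_52_P1044655 of Vcan turned to 0.28 and 0.52 with normexp and passed with quantile normalization at -1.39 and -0.99, and the Sparc pair passed there at -1.04 (exact permutation, adjusted p = 0.0298 for each of the 3). Leaving out 1 array gave 0.44 to 0.92 for the Tnc pair, -0.55 to -0.23 for the Sparc pair, and -0.34 to -0.20, -0.94 to -0.76 and -0.73 to -0.50 for the Vcan pairs. Dim probes limit the Tnc values and the third Vcan probe, since their lowest arrays lie near background.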

Other observations

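The signals before scaling had the following values. For Fn1, processed intensity was 8986, 15220 and 9746 on wildtype 1 to 3 and 129942, 133670, 189284, 137630 and 91195 on neoplasia 1 to 5, without overlap. For Ccn1 it was 300.3, 494 and 377 and then 2032, 3270, 2654, 2117 and 4162, also without overlap. For Spp1 it was 76.1, 168 and 61 and then 639, 1802, 520.2, 2241 and 13964. For the brighter Sparc probe it was 166570, 164167 and 169494 and then 182905, 192634, 230551, 213831 and 211392, so every neoplasia array was above every wildtype array before any scaling. For Thbs2 it was 293, 366 and 158 and then 28.1, 27.7, 22.9, 214 and 2900.1, with neoplasia 5 alone above the wildtype arrays.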
